A study of Homo sapiens with 32 samples.

Results

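The 34 genes described here are the transcription factor ATF4 and genes known as its targets in the integrated stress response. They were taken by name from the count tables, in which all 34 were found among 62703 gene identifiers. They were chosen by a readout, since a similar list had been seen to be higher in the IGF2BP2 knockout. Every value from the IGF2BP2 comparison is therefore a description without a test. The IGF2BP3 comparison uses the same control libraries as the IGF2BP2 comparison, so it is not independent of that choice. The study measured polyadenylated RNA in HEK293T cells, a human embryonic kidney line, after CRISPR/Cas9 knockout of IGF2BP1, IGF2BP2 or IGF2BP3, RNA-binding proteins that bind and stabilise many mRNAs. Control cells had received a guide RNA without a mammalian target, knockout cells 3 guides for the gene, and no group had any other treatment. Each knockout was 1 clone, so a feature of the clone and an effect of the lost protein cannot be told apart. Total, nuclear and cytoplasmic RNA were sequenced in 32 libraries: 4 control libraries of each kind (batches 1 to 4), 2 of the IGF2BP1 knockout (batches 1 and 2), 2 of the IGF2BP2 knockout (batches 3 and 4) and 2 of the IGF2BP3 knockout (batches 3 and 4). Cytoplasmic RNA of the IGF2BP3 knockout had 2 further libraries in batch 5, which holds no control. The labels do not say whether libraries came from separate cultures, so p-values measure only the spread between these libraries.

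The integrated stress response starts with kinases that phosphorylate the initiation factor eIF2 when amino acids or heme are short, when proteins misfold in the endoplasmic reticulum, or when viral RNA is present. General translation then slows, while upstream reading frames in the ATF4 mRNA let more ATF4 protein be made, so the protein can increase without a change in its mRNA. With partners of the C/EBP family ATF4 switches on genes for amino acid import and synthesis, for tRNA handling, and for feedback regulators such as PPP1R15A, which brings a phosphatase to eIF2, and TRIB3 and DDIT3 (CHOP), which act when stress lasts. RNA measurements such as these do not show eIF2 phosphorylation or ATF4 protein.

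The C/EBP-ATF response element, the DNA sequence through which ATF4 heterodimers act, was searched as its core TGATGNAA on both strands of RefSeq promoter windows (GRCh38.p14, 250 bases before to 50 after each annotated start). A window was found for 28 members, of which 9 (32.1%) held the core, against 4.46% of 27305 genes with a window. Counted by window, 20.0% of the 45 member windows and 3.62% of all 35116 windows held it. Members had 1.61 windows each and all genes 1.29. Nothing is read from these shares, because the members were listed as known ATF4 targets. The matches of 8 members are shown on the gene's strand, with the core or its reverse complement in capitals, because these members share the letters and yet differ in how they moved across the knockouts. A match describes the letters and is not a shown binding site.
CHAC1: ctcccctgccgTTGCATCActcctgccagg
FGF21: aaacaccaggaTTGCATCAgggaggaggag
SLC1A4: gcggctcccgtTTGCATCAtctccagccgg
CEBPG: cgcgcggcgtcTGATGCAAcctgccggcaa
ATF3: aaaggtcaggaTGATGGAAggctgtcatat
ASNS: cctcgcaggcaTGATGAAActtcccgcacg
SLC1A5: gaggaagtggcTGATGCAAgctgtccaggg
SLC3A2: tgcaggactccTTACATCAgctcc
They lie at chr15:40953251-40953280 (CHAC1, plus strand), chr19:48755459-48755488 (FGF21, plus), chr2:64989381-64989410 (SLC1A4, plus), chr19:33374060-33374089 (CEBPG, plus), chr1:212565205-212565234 (ATF3, plus), chr7:97872458-97872487 (ASNS, minus), chr19:46784893-46784922 (SLC1A5, minus) and chr11:62881725-62881748 (SLC3A2, plus). The other member with a match was SLC7A1. Counted from the annotated start, the match began at position -209 in CHAC1, -191 in ATF3, -97 in SLC1A5, -68 in ASNS, -54 in FGF21, -42 in CEBPG and -7 in SLC1A4, and at position 38, downstream of the start, in SLC3A2.

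Library depth ran from 13689067 to 26119480 counts. Levels are given as CPM, counts scaled to the library size after the trimmed mean of M values (TMM) correction. The targeted genes were lower in their own knockouts: in cytoplasmic RNA IGF2BP1 stood at 22.4 and 22.1 CPM in its knockout against 357 to 435 CPM in controls, IGF2BP2 at 34.3 and 35.9 CPM against 84.2 to 89.3 CPM, and IGF2BP3 at 28.8, 30.6, 25.1 and 26.3 CPM against 68.3 to 74.8 CPM. Total RNA replicate 2 and nuclear RNA replicate 1 of the IGF2BP1 knockout were identical (0 identifiers differed), the 1 such pair among 496, so a single library stands under 2 labels and in 2 batches. For the IGF2BP1 knockout in those kinds, the counts of members called and their medians are given with and without this library. The calls of SLC1A4, ATF5, TRIB3, SHMT2 and PCK2, and that of ATF4 in total RNA, were also looked at without it. Values given for other single genes there, and for the nuclear to cytoplasmic ratio of that knockout, include the shared library. All 6 markers of the 293 line were present, and their summed level was 286.7 to 408 CPM in controls, 251 to 313 CPM in the IGF2BP1 knockout, 281 to 319 CPM in the IGF2BP2 knockout and 119 to 197 CPM in the IGF2BP3 knockout. The blood cell markers PTPRC and CD3E were at or near 0. Of 6 fibroblast markers 2 (COL1A1 and COL3A1) reached 1 CPM in any library, and the summed level of the 6 was 20.5 to 43.4 CPM in controls and 20.3 to 68.2 CPM in the IGF2BP3 knockout. The part of the fibroblast markers in the IGF2BP3 results was not tested.

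In the IGF2BP2 knockout 26 of the 34 members were higher in all 6 same-batch pairs of knockout and control libraries (2 pairs for each RNA kind), where 27.9% of the 17587 genes tested in every kind were, 2 were lower in all 6, where 27.4% were, and 6 were mixed. In total RNA 16 members were at least 1.5-fold higher in both pairs, where 16.1% of all genes tested were, and 1 was as much lower, where 10.2% were. Nuclear RNA had 19 higher (14.1% of all genes) and 1 lower (10.5%), and cytoplasmic RNA 16 higher (17.8%) and 1 lower (11.3%). Nothing is read from these shares, because the comparison helped to choose the members. The members' median log2 difference was 0.54 in total, 0.75 in nuclear and 0.47 in cytoplasmic RNA, beside 0.02, 0.0067 and 0.013 over all genes. By role, all 5 feedback and stress effectors and 5 of 7 transcription factors were past 1.5-fold higher in every RNA kind, against 0 of 6 enzymes of serine, glycine and one-carbon synthesis in total and cytoplasmic RNA and 1 in nuclear RNA.

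**Figure D1:**
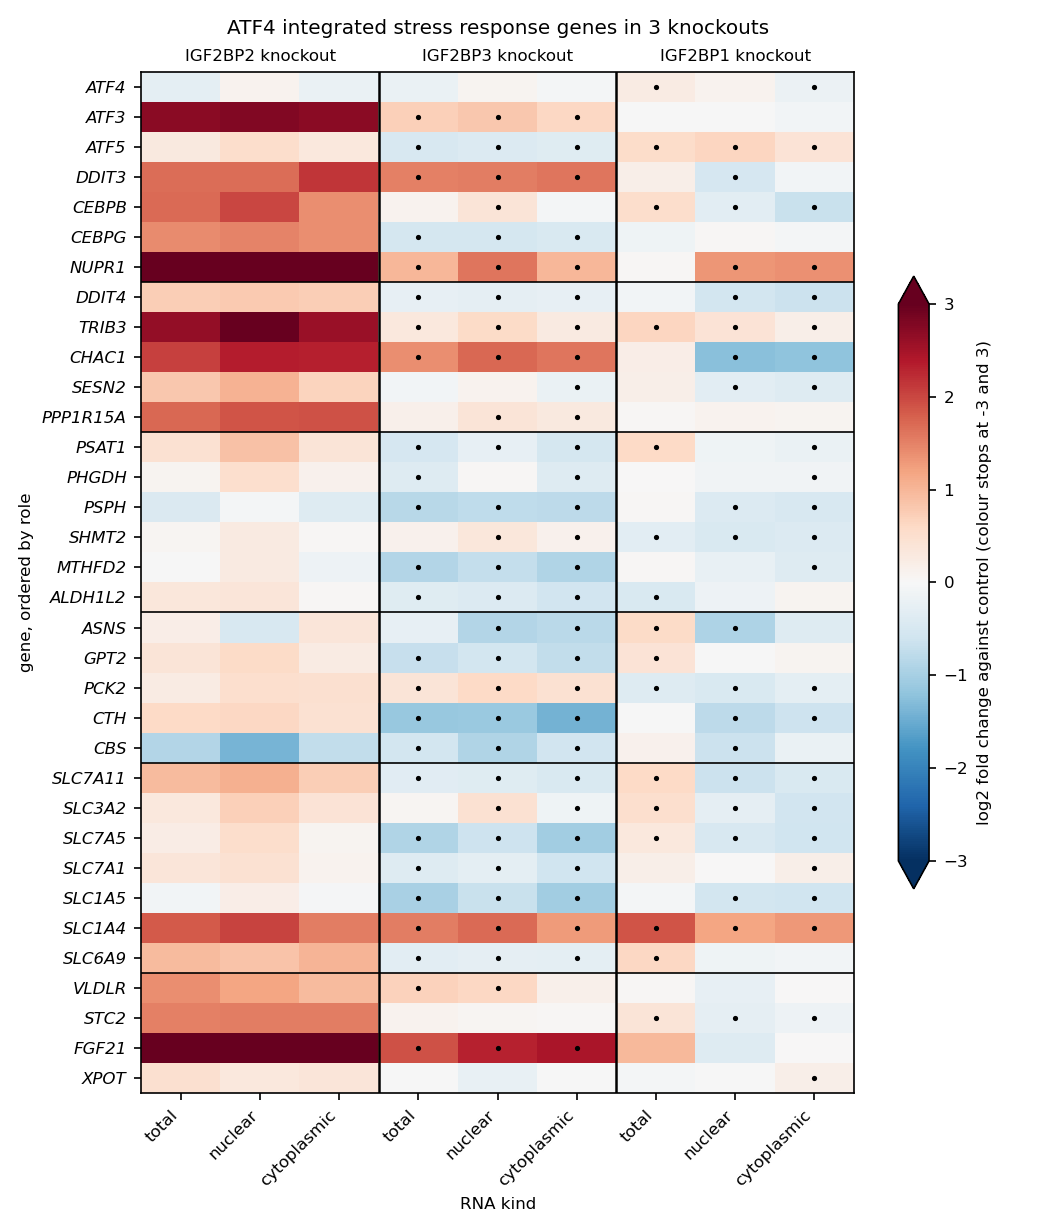
Colour gives the log2 fold change of each of the 34 genes against control cells in total, nuclear and cytoplasmic RNA of the 3 knockouts, from blue (lower) to red (higher). Black dots mark genes called at an adjusted p under 0.05 (IGF2BP1 and IGF2BP3 knockouts; the IGF2BP2 knockout was not tested), and the fold of FGF21 rests on controls of 1 to 4 counts. The IGF2BP2 columns are red for 26 genes throughout, while the IGF2BP3 columns hold both red and blue rows, such as CHAC1 and CTH.

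ATF4 mRNA itself was not among the members with higher levels throughout. In cytoplasmic RNA it was at 1205 and 1169.5 CPM in the IGF2BP2 knockout, against 1364 and 1369 CPM in the controls of the same batches and 1202 and 1174 CPM in those of batches 1 and 2. In total RNA the knockout was at 841 and 825 CPM, again below its controls at 973 and 1062 CPM. In nuclear RNA it stood slightly above them, at 1019 and 1044 against 927 and 976 CPM. Per length, ATF4 was the most abundant of the 34 in control cells, at 421 ± 34.2 FPKM (SD, n = 4; FPKM are the authors' length-scaled values) in cytoplasmic RNA. DDIT4, an inhibitor of mTORC1, and SHMT2 came next, at 88.8 and 67.1 FPKM, and FGF21 was lowest, at 0.042 FPKM.

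The members with the largest differences in the IGF2BP2 knockout included genes nearly silent in control cells. FGF21, a hormone of the fasting response, had 206 and 154 counts in the cytoplasmic knockout libraries and 1 to 3 counts in each cytoplasmic control library, so no fold is given. NUPR1, a small stress-induced chromatin protein, was at 33.95 and 32.1 CPM in cytoplasmic RNA against 2.92 and 2.71 CPM in the controls of the same batches and 0.73 and 0.792 CPM in the others. For ATF3, a stress-induced transcription factor, the knockout was at 244 and 244 CPM against 39.0, 36.6, 37.6 and 37.3 CPM in the 4 controls. The groups were far apart for these genes, and the controls of ATF3 lay close together in all batches. TRIB3, a pseudokinase that binds ATF4, was at 223 and 222 CPM against 32.1, 34.9, 36.6 and 36.8 CPM. CHAC1, which degrades glutathione, was at 108 and 104 CPM against 32.7, 31.2, 21.0 and 21.2 CPM, and PPP1R15A at 129 and 122 CPM against 30.4, 28.4, 33.97 and 33.0 CPM. In none of the 6 genes did a knockout library overlap the controls of its RNA kind. These 6 were picked for their differences in this same comparison, so nothing is read from that separation. Their smallest log2 differences over the 6 pairs were 3.37 for NUPR1, 2.69 for ATF3, 2.58 for TRIB3, 1.98 for CHAC1 and 1.67 for PPP1R15A.

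Other regulators and secreted products followed in size. The smallest log2 difference over the 6 pairs was 1.58 for DDIT3, 1.34 for CEBPG and 1.32 for CEBPB, both C/EBP partners, 1.496 for the secreted glycoprotein STC2 and 1.48 for SLC1A4, a transporter of alanine and serine. Transporters differed among themselves: SLC7A11, which imports cystine, was higher by at least 0.67 in every pair, while SLC7A5, which imports leucine, and SLC1A5, which imports glutamine, were mixed. The members lower in all 6 pairs were CBS, which starts transsulfuration, with fitted log2 differences of -0.88 in total, -1.38 in nuclear and -0.73 in cytoplasmic RNA, and PSPH, the last step of serine synthesis, with -0.43, -0.06 and -0.40. CBS has a near-identical gene copy, CBSL, and the authors' counting could have split or dropped reads shared with it, so its values are uncertain.

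In the IGF2BP3 knockout the same genes split. In total RNA 9 of 34 members rose and 16 fell (edgeR quasi-likelihood test, Benjamini-Hochberg adjusted p under 0.05 over all genes), where 23.5% of all genes rose and 23.4% fell. In nuclear RNA 13 rose and 16 fell (background 25.1% and 25.3%), and in cytoplasmic RNA 10 rose and 19 fell (31.5% and 33.2%). The members' median log2 fold change was -0.22, -0.09 and -0.22, beside 0.018, 0.0076 and 0.025 over all genes, and the share of members that rose in total and cytoplasmic RNA was near that of all genes. Scaling by library totals without the TMM factor moved the median of all genes to 0.23, 0.13 and 0.29 and the split of the members to 13 higher and 8 lower, 14 and 11, and 16 and 14. Upper quartile scaling gave 12 and 12, 13 and 11, and 14 and 15. In all, 23 members were called in 1 direction in every RNA kind and had that sign in every same-batch pair, 8 of them higher (17.1% of all genes) and 15 lower (18%).

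The large rises included regulators, stress effectors and a transporter. CHAC1 in cytoplasmic RNA was at 61.6 and 67.1 CPM in batches 3 and 4 of the IGF2BP3 knockout against 21.0 and 21.2 CPM in the controls of those batches (log2 fold change 1.61 ± 0.07 SE, edgeR adjusted p = 1.45e-20). It rose by 1.39 in total and 1.72 in nuclear RNA as well. DDIT3, the pro-apoptotic factor CHOP, was at 29.7 and 30.6 CPM against 10.5 and 9.42 CPM (1.60 ± 0.09, edgeR adjusted p = 1.93e-17), and rose by 1.503 in total and 1.54 in nuclear RNA. In GENCODE 29 MARS overlaps 27.2% of its exon bases on the other strand, and the strand setting of the authors' counting is not given in the sources used here. SLC1A4 was at 51.6 and 48.5 CPM against 21.3 and 20.0 CPM (1.27 ± 0.07, edgeR adjusted p = 6.17e-17), with rises of 1.54 in total and 1.70 in nuclear RNA. For CHAC1, DDIT3 and SLC1A4 every batch 3 and 4 knockout library lay above every control library of its RNA kind.

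Several members that were far higher in the IGF2BP2 knockout rose here by less. ATF3 was at 58.9 and 57.4 CPM against 37.6 and 37.3 CPM (0.63 ± 0.05, edgeR adjusted p = 3.54e-12). NUPR1 was at 5.16 and 5.98 CPM against 2.92 and 2.71 CPM (0.99 ± 0.17, edgeR adjusted p = 6.17e-06). FGF21 had 37 and 20 counts in cytoplasmic RNA against 3 and 3 in the controls of the same batches and was called higher (edgeR adjusted p = 7.73e-05). It was also called higher in total RNA, with 9 and 17 counts against 4 and 1 (edgeR adjusted p = 0.0301). There it passed the filter on low counts only through the IGF2BP2 knockout libraries (89 and 131 counts), whose comparison helped to choose the members. Nothing is read from that call, which the counts of members that rose in total RNA and in every RNA kind include. The call in total RNA was lost without control replicate 4 or knockout replicate 2 (edgeR adjusted p = 0.239 and 0.275) and under DESeq2 (adjusted p = 0.0613). TRIB3 was at 43.7 and 44.2 CPM against 36.6 and 36.8 CPM (0.26 ± 0.06, edgeR adjusted p = 2.31e-04). The difference between the IGF2BP2 and IGF2BP3 knockouts was not tested. CEBPG fell in every kind, with log2 fold changes of -0.52, -0.52 and -0.46, where the IGF2BP2 knockout stood at 1.42, 1.49 and 1.40. PCK2, the mitochondrial enzyme that makes phosphoenolpyruvate, rose by 0.45 in cytoplasmic RNA (edgeR adjusted p = 5.76e-10). ATF4 was not called in any kind, at -0.20, 0.09 and -0.06. Without the batch term, which joins batch 5 to batches 3 and 4, the cytoplasmic calls of CHAC1 (0.46, edgeR adjusted p = 0.501), NUPR1, FGF21 and PCK2 were lost.

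The members that fell in the IGF2BP3 knockout were mostly enzymes and transporters of amino acids. CTH, which makes cysteine from cystathionine, was at 25.3 and 24.3 CPM in cytoplasmic RNA against 65.5 and 67.7 CPM (-1.43 ± 0.06, edgeR adjusted p = 2.49e-20), and fell by 1.13 in total and by 1.11 in nuclear RNA. PSPH was at 44.0 and 47.7 CPM against 77.5 and 79.6 CPM (-0.78 ± 0.05, edgeR adjusted p = 1.09e-14). MTHFD2, of mitochondrial folate metabolism, was at 303 and 313 CPM against 587 and 558 CPM (-0.89 ± 0.04, edgeR adjusted p = 1.47e-20). SLC1A5 was at 225 and 220.1 CPM against 439 and 477 CPM (-1.04 ± 0.04, edgeR adjusted p = 1.00e-20), and SLC7A5 fell by 1.05. Without the batch term the calls of CTH, MTHFD2 and PSPH in total RNA were lost (-0.55, -0.46 and -0.43, with edgeR adjusted p = 0.231, 0.149 and 0.168). For CTH, PSPH, MTHFD2 and SLC1A5 the knockout libraries of batches 3 and 4 lay below all 4 cytoplasmic controls.

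In cytoplasmic RNA, where 31.5% of all genes rose and 33.2% fell, the roles can be set side by side. By role, 5 of 6 enzymes of serine, glycine and one-carbon synthesis fell and 1 (SHMT2) rose, by 0.13, a value that became -0.02 without the batch term. The same 5 and 1 were counted under upper quartile and library total scaling. Among the 7 amino acid transporters 6 fell and 1 rose, which became 4 and 2 under library totals. Of the 5 other amino acid enzymes 4 fell and 1 rose, and of the 5 feedback effectors 3 rose and 2 fell, the latter 0 under library totals. The 7 transcription factors were mixed: 3 rose and 2 fell, with a median of -0.06, which became 5 and 1 under library totals. Among the 4 genes for secreted factors, a receptor and tRNA export 1 rose and 0 fell, which became 4 and 0. ASNS, asparagine synthetase, was at 2.35 and 2.68 CPM against 4.15 and 4.71 CPM in cytoplasmic RNA (-0.81 ± 0.18, edgeR adjusted p = 2.14e-04). In GENCODE 29 AC079781.5 overlaps 44.6% of the ASNS exon bases on the same strand, so reads there may not have been assigned to ASNS.

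**Figure D2:**
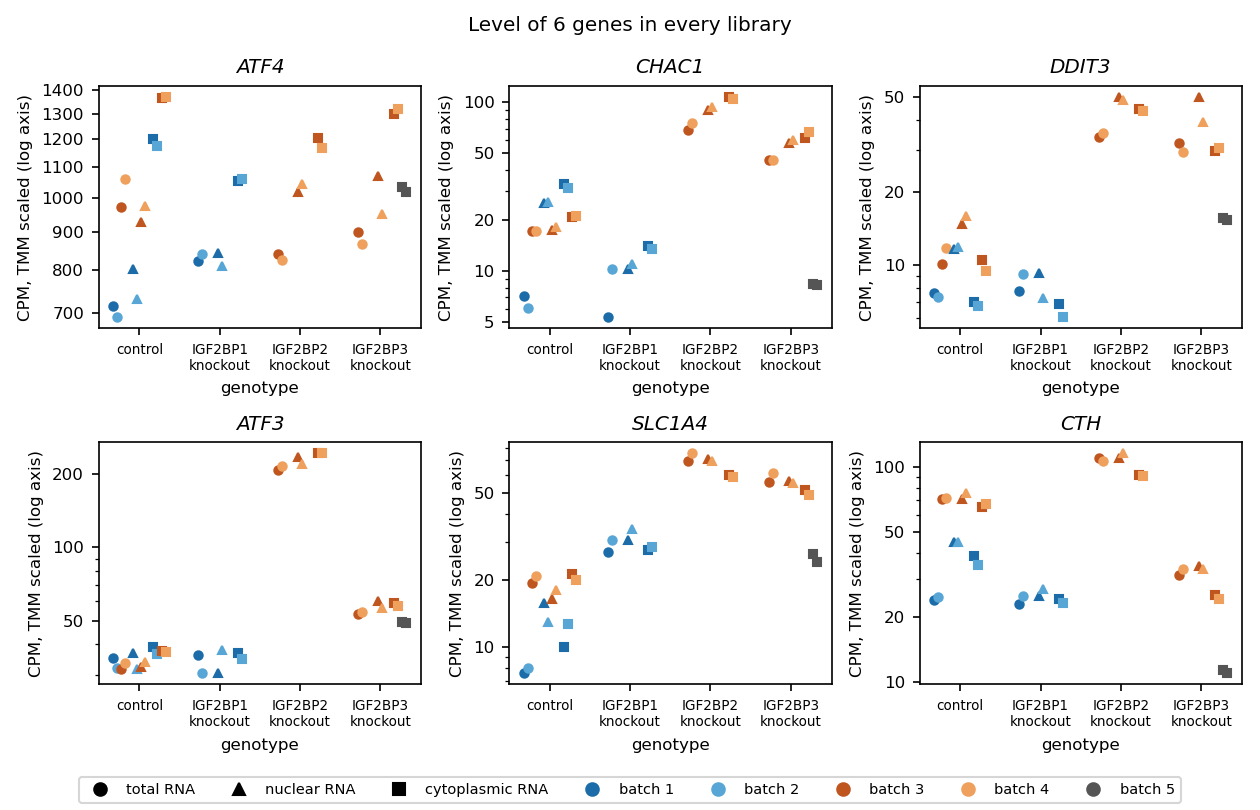
Each point is 1 library, placed by genotype, with the TMM-scaled CPM on a log axis; shape gives the RNA kind and colour the batch. CHAC1, DDIT3, ATF3 and SLC1A4 stand above all controls of their RNA kind in the IGF2BP2 knockout and in batches 3 and 4 of the IGF2BP3 knockout, and the batch 5 libraries are lower than the other cytoplasmic IGF2BP3 libraries in all 6 genes shown.

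The cytoplasmic IGF2BP3 libraries of batch 5 differed from those of batches 3 and 4 in all members. Of 34 members 33 were lower and 1 was higher in batch 5 (edgeR), where 26.8% of all genes were lower and 28.6% higher. The median difference was -0.73 on the log2 scale, beside -0.03 over all genes. CHAC1 was at 8.46 and 8.32 CPM in batch 5 against 61.6 and 67.1 CPM in batches 3 and 4 (-2.94 ± 0.07, edgeR adjusted p = 3.98e-32), which places it below all 4 cytoplasmic controls (21.0 to 32.7 CPM). NUPR1 was at 0.302 and 0.531 CPM against 5.16 and 5.98 CPM (-3.73 ± 0.25, edgeR adjusted p = 4.29e-17), and FGF21 had 1 and 1 counts against 37 and 20 (edgeR adjusted p = 1.28e-07). ATF4 mRNA was lower by less, at 1036 and 1019 CPM against 1300.1 and 1319 CPM (-0.35 ± 0.03, edgeR adjusted p = 4.82e-12). The exception, ATF5, was higher in batch 5, at 27.4 and 24.4 CPM against 15.5 and 15.4 CPM (0.74 ± 0.08, edgeR adjusted p = 4.29e-11). In GENCODE 29 NUP62, at a mean of 149 CPM in cytoplasmic RNA, overlaps 21.2% of the ATF5 exon bases on the other strand, and antisense RNAs overlap 41.2% of those of DDIT4 and 23.4% of those of SLC1A5. SLC4A5 overlaps 27.2% of the MTHFD2 exon bases on the other strand.

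Set beside the 4 cytoplasmic control libraries, 12 members lay above all of them (35.8% of all genes) and 14 below (34.4%) in batches 3 and 4 of the IGF2BP3 knockout. In batch 5, 4 lay above (ATF3, DDIT3, TRIB3 and SLC1A4; 30.1% of all genes) and 28 below (29.5%). DDIT3 was at 15.7 and 15.4 CPM in batch 5, above the controls at 6.73 to 10.5 CPM and below the 29.7 and 30.6 CPM of batches 3 and 4. Batch 5 has no control of its own, so a batch difference and a knockout effect there cannot be told apart. IGF2BP3 itself was below the controls in all 4 libraries and lower in batch 5 than in batches 3 and 4 (-0.21 ± 0.06, edgeR adjusted p = 0.00507).

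In the IGF2BP1 knockout more members rose than fell in total RNA, and more fell than rose in nuclear and cytoplasmic RNA. The difference of total RNA from the fractions was not tested. In total RNA 13 of 34 members rose and 3 fell (edgeR), where 10.7% of all genes rose and 13.5% fell. In nuclear RNA 4 rose and 16 fell (12.7% and 13%), and in cytoplasmic RNA 6 rose and 17 fell (22.5% and 21.9%). The members' medians were 0.17, -0.25 and -0.16, beside 0.0045, 0.0046 and 0.011 over all genes. Without the library that stands under 2 labels, 10 rose and 3 fell in total RNA (median 0.12), and 4 rose and 12 fell in nuclear RNA (median -0.15). Without the batch term, which is the replicate block, the total RNA median was -0.18 with 3 higher and 3 lower, and 0 were higher and 7 lower in cytoplasmic RNA. Under library totals the cytoplasmic split was 9 higher and 15 lower.

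Of the members 5 were called in 1 direction in every kind with that sign in each pair, 3 higher (4.2% of all genes) and 2 lower (6.6%). Without the batch term none of these 5 was called in cytoplasmic RNA, with SLC1A4 at 0.81 (edgeR adjusted p = 0.0888). SLC1A4 had the largest change, at 27.4 and 28.5 CPM in cytoplasmic RNA against 10.0 and 12.7 CPM in the controls of batches 1 and 2 (1.30 ± 0.09, edgeR adjusted p = 2.61e-14), with 1.88 in total and 1.18 in nuclear RNA. Its level was also above the controls of batches 3 and 4, at 21.3 and 20.0 CPM. ATF5, an ATF4 relative that acts in the mitochondrial stress response, was at 34.4 and 32.0 CPM against 24.7 and 25.1 CPM (0.42 ± 0.08, edgeR adjusted p = 3.23e-05), with 0.55 in total and 0.64 in nuclear RNA. It fell in the IGF2BP3 knockout, by 0.37 in cytoplasmic RNA, a call that ended under library total scaling (-0.10, edgeR adjusted p = 0.301), without the batch term (-0.13, 0.568) and without control replicate 4 (-0.24, 0.0816). TRIB3 rose by 0.18 in cytoplasmic, 0.40 in nuclear and 0.65 in total RNA. SHMT2, which turns serine into glycine in mitochondria, was at 241 and 255 CPM against 329.9 and 333 CPM (-0.42 ± 0.04, edgeR adjusted p = 3.08e-11), and PCK2 fell by 0.28 in cytoplasmic, by 0.47 in nuclear and by 0.38 in total RNA. The cytoplasmic calls of TRIB3 and PCK2 each rest on 1 pair: TRIB3 was at 0.10 without replicate 1 of the control or the knockout (edgeR adjusted p = 0.421 and 0.439), and PCK2 at -0.18 and -0.19 without replicate 2 (0.137 and 0.12). TRIB3 in nuclear RNA was at 0.23 and 0.24 without replicate 2 (0.245 and 0.249), and PCK2 in total RNA at -0.22 and -0.23 without replicate 1 (0.0746 and 0.0689); the total RNA call of PCK2 was lost in 7 of 21 alternatives and that of SHMT2 in 5 of 21. SLC1A4, ATF5, TRIB3, SHMT2 and PCK2 were still called in total and nuclear RNA without the library under 2 labels.

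CHAC1, the glutathione-degrading enzyme, was called lower in both fractions. In cytoplasmic RNA it fell to 14.0 and 13.6 CPM from 32.7 and 31.2 CPM (-1.21 ± 0.08, edgeR adjusted p = 1.21e-14), and in nuclear RNA to 10.4 and 11.02 from 25.3 and 25.6 CPM (-1.25 ± 0.11, edgeR adjusted p = 3.18e-12). In total RNA the knockout libraries were at 5.35 and 10.4 CPM, the second being the library shared with nuclear RNA, and the controls of their batches were at 7.16 and 6.10 CPM, below every nuclear and cytoplasmic control. CTH fell by 0.77 in nuclear and by 0.63 in cytoplasmic RNA and stood at -0.02 in total RNA. SLC7A5 and SLC7A11 fell in nuclear and cytoplasmic RNA but rose in total RNA, by 0.31 and 0.60. Those rises are against the controls of batches 1 and 2. The mean of all 4 total RNA controls was above the knockout for both. It was 8.27 ± 3.23 against 6.93 ± 0.79 FPKM for SLC7A5 and 1.38 ± 1.07 against 0.70 ± 0.057 FPKM for SLC7A11 (SD). What part the control batches have in these rises was not tested. ATF4 was called higher in total RNA (0.24 ± 0.08, edgeR adjusted p = 0.0437) and lower in cytoplasmic RNA (-0.17 ± 0.03, edgeR adjusted p = 1.22e-04). The first call was lost in 12 of 21 alternatives, among them leaving out the shared library (edgeR adjusted p = 0.0776), and turned to -0.048 without the batch term. NUPR1 rose in nuclear and cytoplasmic RNA, by 1.32 and 1.37, but its cytoplasmic knockout levels of 2.41 and 1.54 CPM compare with 0.73 and 0.792 CPM in the controls of batches 1 and 2 and 2.92 and 2.71 CPM in those of batches 3 and 4. The nuclear value was 0.11 without replicate 2 of the control or the knockout (edgeR adjusted p = 0.914 and 0.916) and was not called by DESeq2 (adjusted p = 0.165) or limma. The cytoplasmic call was lost without replicate 1 of either (0.96 in both, edgeR adjusted p = 0.097 and 0.103) and without the batch term (0.20, 0.904). The cytoplasmic fall of CHAC1 was also not called without the batch term (-0.95, edgeR adjusted p = 0.386).

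The difference between the effects of the IGF2BP3 and IGF2BP1 knockouts was tested in cytoplasmic RNA, each against the controls of its own batches. It was called for 24 of 34 members, 10 higher in the IGF2BP3 knockout, where 22.2% of all genes were, and 14 lower, where 29.1% were; library totals and upper quartile scaling both gave 13 and 10. CHAC1 had the largest difference (2.82 ± 0.10, edgeR adjusted p = 6.76e-21), followed among called members by DDIT3 (1.69 ± 0.15, edgeR adjusted p = 3.52e-11). SLC1A4 rose in both knockouts, and its effects differed by -0.02 ± 0.12, which did not pass (edgeR adjusted p = 0.89).

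Control cells themselves differed between batches, most in total RNA. The controls of batches 3 and 4 were higher than those of batches 1 and 2 for 26 of 34 members and lower for 0 in total RNA (edgeR), where 1.84% of all genes were higher and 1.81% lower. At an unadjusted p under 0.05, 29 were higher and 0 lower (edgeR, the tool run for this comparison). In nuclear RNA 14 were higher and 2 lower (8.34% and 9.4%), and in cytoplasmic RNA 20 higher and 4 lower (11.2% and 15.4%). The medians were 0.63, 0.18 and 0.21, beside 0.012, 0.011 and -0.004 over all genes. With 1 total RNA control left out the count of members called fell from 26 to 10 (without replicate 1), 11 (without 2), 13 (without 3) or 11 (without 4), all higher. In nuclear RNA it fell from 16 to 7 without control replicate 1 or 3 and to 8 without control replicate 4.

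SLC7A11 was at 33.4 and 38.7 CPM in total RNA of control batches 1 and 2 and at 188 and 180.1 CPM in batches 3 and 4 (2.35 ± 0.10, edgeR adjusted p = 2.32e-07). CTH was at 24.1 and 24.8 against 70.7 and 71.4 CPM (1.54 ± 0.09, edgeR adjusted p = 3.03e-06), and PSAT1, of serine synthesis, at 197 and 199.9 against 528 and 541 CPM (1.43 ± 0.08, edgeR adjusted p = 3.03e-06). In these 3 genes the pairs of batches did not overlap in total RNA. In nuclear and cytoplasmic RNA SLC7A11 differed by only 0.47 and 0.28. There NUPR1 (1.29 and 1.87) and PCK2 (0.90 and 1.204) differed most. NUPR1 in nuclear RNA was at 0.61 without control replicate 2 (edgeR adjusted p = 0.37), below PCK2, and its call was also lost without control replicate 3 (0.223) or 4 (0.0564). CHAC1 was lower in batches 3 and 4 in nuclear (-0.51) and cytoplasmic RNA (-0.60) and higher in total RNA (1.38). The total RNA call of CHAC1 was lost with any 1 control left out (1.26 to 1.49, edgeR adjusted p = 0.0852 to 0.123).

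**Figure D3:**
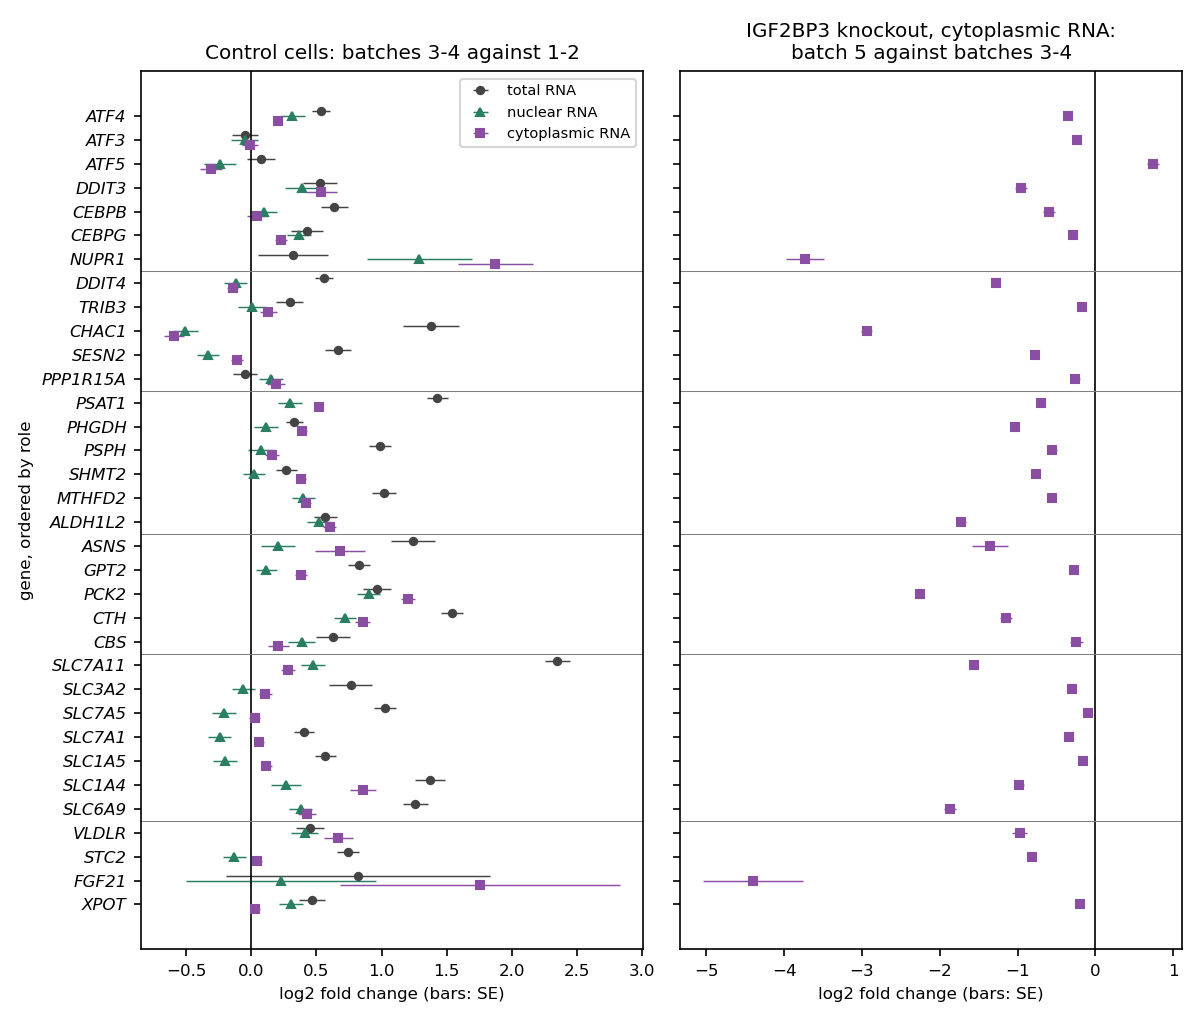
Points give log2 fold changes with their SE for the 34 genes: on the left control cells of batches 3 and 4 against batches 1 and 2 in 3 RNA kinds, on the right the IGF2BP3 knockout of batch 5 against batches 3 and 4 in cytoplasmic RNA. In total RNA most genes lie right of 0, up to 2.35 for SLC7A11, and on the right 33 of 34 genes lie left of 0, with ATF5 at 0.74; FGF21 rests on 1 to 4 counts in controls and in batch 5.

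In control cells 33 members could be compared between the fractions, FGF21 having too few counts. Of these 8 were more nuclear and 16 more cytoplasmic (edgeR), where 32.6% and 33.3% of all genes were; library totals gave 11 and 13 and moved the median of all genes from -0.02 to 0.12. Among the 7 transcription factors 6 were cytoplasmic and 1 nuclear. ASNS was the most nuclear, at 20.1, 19.8, 24.9 and 20.9 CPM in nuclear RNA and 2.76, 2.77, 4.15 and 4.71 CPM in cytoplasmic RNA (2.505 ± 0.12, edgeR adjusted p = 8.18e-15), followed by CBS (1.442 ± 0.07) and VLDLR, a lipoprotein receptor (0.72 ± 0.09). The values of ASNS and CBS are uncertain, since AC079781.5 overlaps 44.6% of the ASNS exon bases on the same strand and CBS has the copy CBSL. What part this has in their ratios was not tested. The most cytoplasmic were ATF5 (-0.85 ± 0.08), NUPR1 (-0.85 ± 0.26) and CEBPG (-0.77 ± 0.06), and ATF4 stood at -0.66. Each fraction held RNA typical of the other: MALAT1, a nuclear RNA, stood at a mean of 108 CPM in nuclear and 22.8 CPM in cytoplasmic RNA of controls, and GAPDH at 2384 and 3595 CPM.

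The nuclear to cytoplasmic ratio moved for few members. In the IGF2BP1 knockout 0 rose and 1 fell (background 2.36% and 1.76%), with 3 and 3 at an unadjusted p under 0.05 by edgeR and 0 and 0 called by DESeq2. In the IGF2BP3 knockout 3 rose and 1 fell (4.07% and 6.81%), which became 1 and 2 under library totals. CBS fell in both, by 0.45 in the IGF2BP1 knockout (edgeR adjusted p = 0.0422) and by 0.41 in the IGF2BP3 knockout (edgeR adjusted p = 0.0393). SLC3A2, the heavy chain that brings SLC7A5 and SLC7A11 to the membrane, rose by 0.52 (edgeR adjusted p = 4.90e-04), SLC7A5 by 0.37 (edgeR adjusted p = 0.0241) and PHGDH, the first enzyme of serine synthesis, by 0.37 (edgeR adjusted p = 0.0288) in the IGF2BP3 knockout. Leaving out batch 3 or batch 4 left 0 called in that knockout, and leaving out batch 1 or batch 2 gave 7. MALAT1 in cytoplasmic RNA was at a mean of 97.2 CPM in batches 3 and 4 of the IGF2BP3 knockout against 22.8 CPM in controls. It was also called higher in total (1.76) and nuclear RNA (0.996) of that knockout. The part of MALAT1 in these ratios was not tested.

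**Figure D4:**
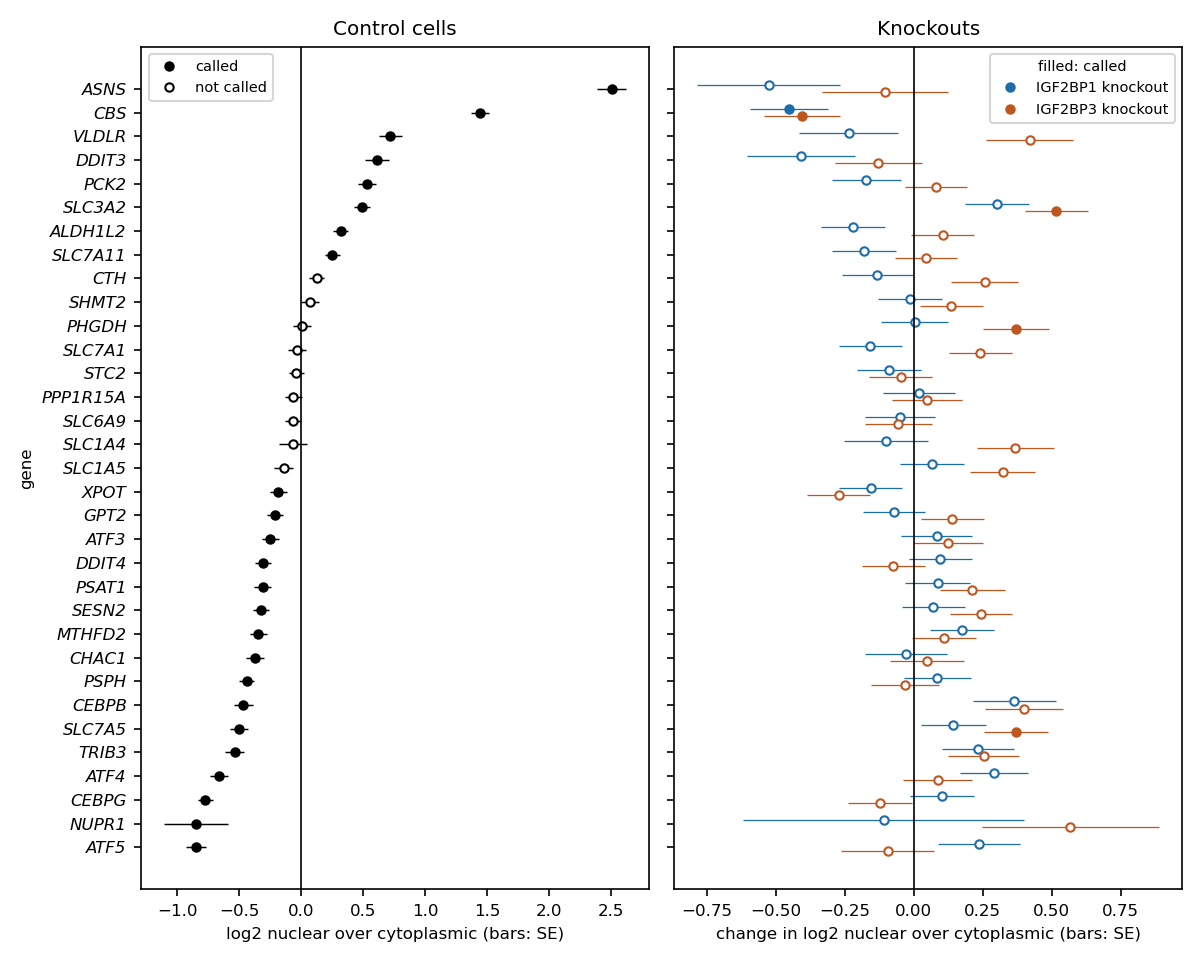
On the left the log2 ratio of nuclear to cytoplasmic RNA in control cells with its SE for the 33 genes that could be tested, from ATF5 (-0.85) to ASNS (2.505); on the right the change of that ratio in the IGF2BP1 and IGF2BP3 knockouts. Filled points were called, which on the right are CBS in both knockouts and SLC3A2, SLC7A5 and PHGDH in the IGF2BP3 knockout. The values of ASNS and CBS are uncertain, for the overlapping gene and the gene copy named in the text.

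Neighbouring pathways were looked at through further lists. In cytoplasmic RNA 31.5% of all genes rose and 33.2% fell in the IGF2BP3 knockout, and 22.5% and 21.9% in the IGF2BP1 knockout. Of 20 other known ATF4 targets, 13 were at least 1.5-fold higher in both pairs of total and of cytoplasmic RNA and 14 in nuclear RNA of the IGF2BP2 knockout. Of all genes 16.1%, 17.8% and 14.1% were, and nothing is read from these shares. In cytoplasmic RNA of the IGF2BP3 knockout 9 rose and 8 fell, with a median of 0.09, which became 12 and 6 under library totals, and in the IGF2BP1 knockout 7 rose and 8 fell, with a median of -0.01. INHBE, a secreted activin subunit, was at 11.2 and 9.76 CPM in the IGF2BP3 knockout against 0.843 and 1.18 CPM (3.35 ± 0.18, edgeR adjusted p = 2.37e-17) and at 65.4 and 62.5 CPM in the IGF2BP2 knockout. ADM2, a secreted peptide of the calcitonin family, fell to 0.463 and 0.378 CPM in the IGF2BP3 knockout from 4.28 and 5.12 CPM (-3.48 ± 0.26, edgeR adjusted p = 7.01e-14), while the IGF2BP2 knockout stood at 37.8 and 37.8 CPM. NIBAN1 rose in the IGF2BP3 (1.67) and IGF2BP1 (1.12) knockouts. GDF15, a stress cytokine, was called lower in the IGF2BP1 knockout, at 0.0985 and 0.319 CPM against 0.469 and 0.891 CPM (edgeR adjusted p = 0.0129); the lower knockout library is under the level of 3 counts, so no fold is given. In batch 5 of the IGF2BP3 knockout 16 of the 20 were lower than in batches 3 and 4 and 2 higher (all genes: 26.8% and 28.6%).

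Of 18 genes for the eIF2 kinases and the eIF2 machinery, 3 rose and 13 fell in cytoplasmic RNA of the IGF2BP3 knockout (all genes: 31.5% and 33.2%). Their median was -0.33, and library totals gave 5 and 7 with a median of -0.06. In the IGF2BP1 knockout 6 rose and 7 fell (all genes: 22.5% and 21.9%), which became 10 and 4 under library totals. OMA1, the mitochondrial protease that cleaves DELE1, fell by 0.92 in the IGF2BP3 knockout, GCN1, the partner of the kinase GCN2, by 0.88 and EIF2B3, a subunit of the eIF2 exchange factor, by 0.88. In the IGF2BP1 knockout QRICH1 rose by 0.87, IMPACT, an inhibitor of GCN2, by 0.82 and EIF2AK3, the kinase PERK, by 0.48. Of 20 genes of the ATF6 and XBP1 arms of the unfolded protein response 7 rose and 9 fell in the IGF2BP3 knockout, led by MANF (0.44) and SDF2L1 (-0.41). That split was near the shares of all genes and became 11 and 1 under library totals. In the IGF2BP1 knockout 8 of the 20 rose and 2 fell.

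All 10 genes of mitochondrial stress and chaperones fell in cytoplasmic RNA of the IGF2BP3 knockout (33.2% of all genes fell), with a median of -0.90. In the IGF2BP1 knockout 9 of 10 fell (21.9% of all genes fell), with a median of -0.31. Library totals left 9 falling in each. HSPD1, the mitochondrial chaperonin, was at 425 and 426 CPM in the IGF2BP3 knockout against 1429 and 1366 CPM (-1.72 ± 0.04, edgeR adjusted p = 2.11e-28), and fell by 0.52 in the IGF2BP1 knockout. In batch 5 these 10 genes were all higher than in batches 3 and 4, while 33 of the 34 ATF4 members were lower. Of all genes 28.6% were called higher there and 26.8% lower. Of 12 targets of NRF2, a regulator of the oxidative stress response, 9 fell and 1 rose in the IGF2BP3 knockout (all genes: 33.2% and 31.5%). The malic enzyme ME1 (-1.80) led them, and 4 of the 12 fell under library totals.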

How the data were processed

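Poly(A) RNA of 32 HEK293T libraries was analysed from gene tables that the authors deposited, with unnormalized counts and with FPKM. STAR, featureCounts, DESeq2 1.44.0 and the build GRCh38 are named in the submitters' processing notes; the strand setting of the counting is not given in the sources used here. A stranded poly(A) kit was used, per the labels' protocols. Identifiers without a symbol held 0.349 to 0.713% of the counts of a library.

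Counts were fitted per RNA kind with edgeR 4.0.16 (R 4.3.3): TMM scaling, filtering of low counts with filterByExpr, model terms for the 3 knockouts and the batches, and the quasi-likelihood test with Benjamini-Hochberg adjustment over 18745 genes in total, 18732 in nuclear and 18212 in cytoplasmic RNA (threshold 0.05). All 34 members passed the filter in each, FGF21 in total RNA only through the IGF2BP2 knockout libraries. The ratio fit joined both fractions of batches 1 to 4. The batch given in the labels pairs knockout with control libraries and is the replicate block; batch 5 informs only the spread in the knockout comparisons. Same-batch differences of the IGF2BP2 knockout used log2 CPM with a prior count of 2. Levels between genes were compared with FPKM. Each SE of a fold change was worked back from the edgeR test. It is the absolute log2 fold change divided by the square root of the F statistic. Fits were tested on simulated data.

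The members and the other gene lists were chosen with earlier results of these data known. Members given in full were ATF4; up to 10 for each tested knockout, called in 1 direction in every RNA kind with that sign in each same-batch pair; the 6 with the largest smallest difference and those lower in all 6 pairs in the IGF2BP2 knockout; up to 4 called in the ratio; the 3 most nuclear and 3 most cytoplasmic; up to 3 for each batch comparison and for each other list. Others were named for their role after their values were seen. Overlaps came from GENCODE 29. Alternatives were RLE and upper quartile scaling, DESeq2 1.42.0, limma 3.58.1 on log2(FPKM + 1) and log2(FPKM + 0.1), no filter or a filter at a mean of 1 CPM, no batch term, joined batches, the knockout's batches alone and each library left out; library total scaling, and the lists' counts under each scaling, were added after seeing the data. The summed level of the blood cell markers is not reported here.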

Additional observations from a re-analysis of the deposited data

Results flagged for a closer look

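The effects of the IGF2BP3 and IGF2BP1 knockouts in cytoplasmic RNA differed by the test of the difference itself (edgeR, IGF2BP3 minus IGF2BP1, log2 scale) for the following named members. The IGF2BP3 effect was the higher for CHAC1 (2.82), DDIT3 (1.69), PCK2 (0.73), ATF3 (0.71), SHMT2 (0.55) and SLC3A2 (0.44). It was the lower for CTH (-0.79), ATF5 (-0.79), MTHFD2 (-0.51), SLC7A5 (-0.44), SLC1A5 (-0.44), CEBPG (-0.40), CBS (-0.38), PSAT1 (-0.33), PSPH (-0.29) and PHGDH (-0.28). For CHAC1, PCK2, SHMT2 and ATF5 the knockouts moved in opposite directions, each past the threshold in the main fit. The IGF2BP3 value of SHMT2 was only 0.13 and became -0.02 without the batch term. The IGF2BP3 call of ATF5 and the IGF2BP1 call of PCK2 were each lost in 3 of 23 alternatives. In batch 5 of the IGF2BP3 knockout CHAC1 and PCK2 were lower than in batches 3 and 4 (-2.94 and -2.26), and CHAC1 was below every cytoplasmic control. The 2 knockouts were set against controls of different batches, and those controls differed from each other for most members.

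The knockout effect differed between nuclear and cytoplasmic RNA, by the test of that difference, for CBS in the IGF2BP1 knockout (-0.45) and for SLC3A2 (0.52), CBS (-0.41), SLC7A5 (0.37) and PHGDH (0.37) in the IGF2BP3 knockout. In 0 of 100 groups of 4 libraries of a named member did the highest or lowest library stand apart from the other 3 past Dixon's 95% critical value. Each group joined pairs of batches that differed for many members, a split this rule can hardly detect, so nothing is read from the count.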

How the results depend on the processing

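Over 253 alternatives of the member counts in 17 comparisons, 224 stayed within 1.5 times the count above. For the IGF2BP2 knockout, which was not tested, the count was of members past 1.5-fold in both pairs, and elsewhere of members called. Dropping the batch term (no replicate block) moved the IGF2BP1 counts to 6 in total and 7 in cytoplasmic RNA, the IGF2BP3 count in total RNA to 11 (9 higher, 2 lower) and the IGF2BP3 ratio count to 2. limma on log2(FPKM + 0.1) gave 10 in total and 11 in nuclear RNA of the IGF2BP1 knockout, and on log2(FPKM + 1) 7 and 9. Using only the knockout's batches gave 8 in total RNA there. The ratio count was 0 for IGF2BP1 under DESeq2, the filter at a mean of 1 CPM and library totals, and 2 for IGF2BP3 under DESeq2. With 1 library or batch left out, the counts ran from 0 to 1 (IGF2BP1 ratio), 0 to 7 (IGF2BP3 ratio), 16 to 27 (IGF2BP3, total RNA; 16 without control replicate 3 or knockout replicate 2), 7 to 18 (control batches, nuclear RNA) and 10 to 29 (control batches, total RNA). The causes were not tested.

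For named members, 2080 of 2221 alternatives kept direction and call, 139 lost the call and 2 changed sign, both without the batch term: ATF4 in total RNA of the IGF2BP1 knockout (-0.048) and SHMT2 in cytoplasmic RNA of the IGF2BP3 knockout (-0.023). Of 113 such results 70 were called under every alternative run. Genes under the level of 3 counts, 0.115 to 0.219 CPM by library, cannot be told from absent, which limits FGF21 in controls and GDF15 in the IGF2BP1 knockout.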
